A study of Mus musculus with 8 samples.

Results

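The mitotic spindle, kinetochore and checkpoint genes described here are 38 genes that build the spindle, join chromosomes to it, delay anaphase until they are joined, or drive entry into and exit from mitosis. They were chosen by gene name, as the non-control array probes whose listed gene was 1 of the 38, and the list was drawn up with earlier results of these data known. They were covered by 55 of the 55501 probes analysed, and all 38 were among the 27109 genes tested. RNA came from cultured satellite cells, the stem cells of skeletal muscle, taken from hindlimbs of C57BL/6J mice aged 3 to 4 months. Sorted cells were cultured overnight and transduced with a lentivirus that integrates into the genome, and eGFP-positive cells were sorted 5 days later. The control group carried a genomically integrated eGFP cDNA, a green fluorescent protein (4 samples), and the other group a Hoxa9 cDNA together with eGFP (4 samples). Both groups were thus transduced, cultured and sorted, and no untransduced sample was analysed here. The promoter of the vector and the number of animals behind a sample are not given in the sources used here, so p-values measure only the spread between these samples, which may be technical. Each sample was hybridised to 1 Agilent 1-colour array of 60-base probes.

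Cells enter mitosis when cyclin B and Cdk1 become active, a step that phosphatases of the Cdc25 family release. Spindle microtubules then capture each chromosome at its kinetochore, a protein assembly built on centromeric chromatin, and Aurora B of the chromosomal passenger complex severs wrong attachments. Kinetochores that are not yet attached feed the spindle checkpoint, which holds Cdc20 and with it the anaphase-promoting complex (APC/C). Once the checkpoint is silent, the APC/C marks cyclin B and securin for destruction, separase cuts cohesin, and the central spindle guides cytokinesis. Most of these genes are transcribed late in the cell cycle, and in adult muscle satellite cells are quiescent until injury or culture brings them into cycle.

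Hoxa9 encodes a homeodomain transcription factor, and its brighter probe (mm9, chromosome 6, 52175595 to 52175654, minus strand) served as the check of the labels. On the log2 scale relative to each array's 75th percentile, used for every level below, it read -0.98, -0.71, -0.14 and -0.04 on eGFP arrays 1 to 4 and 5.31, 5.44, 5.48 and 5.81 on Hoxa9 arrays 1 to 4. Every Hoxa9 array lay above every eGFP array, and the difference was 5.98 (SE 0.24, 63.1-fold, limma adjusted p = 1.97e-05). A second Hoxa9 probe (mm9, chromosome 6, 52174165 to 52174224) went the other way, 3.34-fold lower in the Hoxa9 group (log2 difference -1.74, SE 0.15, adjusted p = 0.00027). Of the non-control spots, 69.6% to 77.5% per array were well above background and none was saturated. Among muscle stem cell markers, 9 of 10 were tested and Pax7, which defines satellite cells, was well above background on all 8 arrays. Of 10 blood cell markers 7 were tested, and 5 of them, Itgam, Csf1r, Cd68, Cd14 and Cd3e, were well above background on all 8 arrays. The pan-leukocyte gene Ptprc was above it on 2 arrays, Lyz2 on 1 and Hbb-b1 on 0. Of 10 endothelial markers 7 were tested, and 4 of them, Pecam1, Kdr, Vwf and Egfl7, were above background on all 8 arrays, where Tie1, Emcn and Tek were on 0, 1 and 2.

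Nearly all of the 38 mitotic genes were lower in the cells that carried Hoxa9. The test called 36 of them lower and 0 higher at an adjusted p under 0.05, or 94.7%, where 7.42% of all 27109 genes were called lower and 7.83% higher. Their median log2 difference was -1.59, a 3.02-fold lower level, against a median of -0.07 over all genes. The differences ran from -0.52 to -2.03, the latter from Aurkb, which was read near background, and their quartiles were -1.83 and -1.40. With only genes well above background on all 8 arrays kept, which leaves out Aurkb and Cenpf, 34 of 36 were called lower. In the fit over all 27109 genes, which keeps Aurkb and Cenpf, all 36 called genes were lower by at least 2-fold, where 4.15% of all genes were. With normexp background correction Aurkb, Cenpf, Ttk, Cdc25c and Ndc80 were lower by less than 2-fold (-0.42, -0.30, -0.61, -0.63 and -0.92). That correction added an offset of 50 signal units, which draws log2 differences at low signal toward 0. For 37 of the 38, Aurkb and Cenpf among them, each Hoxa9 array was below each eGFP array. That separation was found in that direction for 12.5% of all genes. All 38 differences were below 0, as were 55.7% of those of all genes. The 2 genes that were not called were Cdk1 and Bub3. Because RNA was taken from bulk samples, fewer cells in mitosis and less of these RNAs in each cell cannot be told apart.

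**Figure D1:**
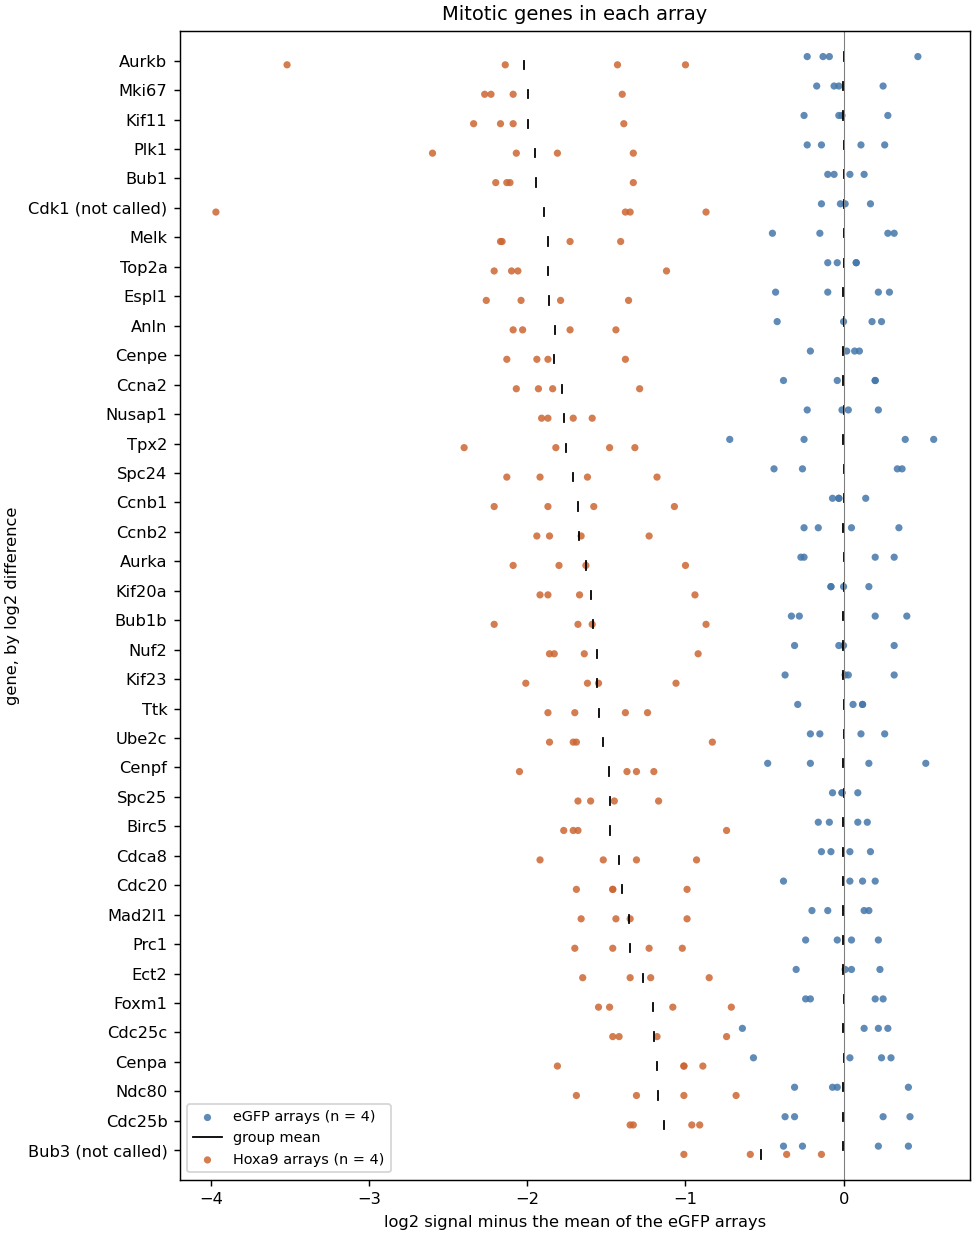
Log2 signal of each of the 38 mitotic genes on each array, minus the gene's mean over the eGFP arrays (x axis), with genes on the y axis ordered by log2 difference. Blue points are the 4 eGFP arrays, orange points the 4 Hoxa9 arrays and black bars the group means. The 2 sets of points are apart for 37 genes and overlap for Bub3, and for Cdk1 1 Hoxa9 array lies far from the other 3.

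The proximal promoters of 6 of these genes are shown because many late cell cycle genes carry a pair of DNA elements near their start, the CCAAT box bound by NF-Y and the cell cycle genes homology region (CHR) bound by the MuvB core. The sequences are from RefSeq (GRCm38.p6), from 120 bases before to 30 bases after the annotated start, written 5′ to 3′ on the gene's strand. Capitals mark CCAAT and the CHR letters TTTGAA or TTCGAA, on either strand, so that ATTGG and TTCAAA are marked too. Spc25 (chr2:69206184-69206333, minus strand) and Bub1 (chr2:127831830-127831979, minus strand) are the 2 called genes of lowest adjusted p that hold both elements, and Bub3 (chr7:131560250-131560399, plus strand, the first of its 2 promoters) was not called. Ccnb2 (chr9:70421525-70421674, minus strand), Cdc20 (chr4:118437314-118437463, minus strand) and Cdk1 (chr10:69352883-69353032, minus strand) were added after the values were seen, as well known genes of this class.
Spc25: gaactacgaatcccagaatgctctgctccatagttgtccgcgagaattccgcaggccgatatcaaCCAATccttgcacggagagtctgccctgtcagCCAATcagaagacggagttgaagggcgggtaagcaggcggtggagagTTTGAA
Bub1: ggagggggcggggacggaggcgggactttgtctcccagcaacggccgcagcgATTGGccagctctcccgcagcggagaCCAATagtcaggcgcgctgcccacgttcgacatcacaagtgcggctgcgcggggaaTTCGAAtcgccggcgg
Ccnb2: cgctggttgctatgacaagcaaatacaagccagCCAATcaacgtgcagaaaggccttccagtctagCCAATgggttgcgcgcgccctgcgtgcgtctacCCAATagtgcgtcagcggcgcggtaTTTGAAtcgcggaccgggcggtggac
Cdc20: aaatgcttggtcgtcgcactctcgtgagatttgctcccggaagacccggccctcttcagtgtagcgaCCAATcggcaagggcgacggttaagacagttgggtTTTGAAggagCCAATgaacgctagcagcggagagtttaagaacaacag
Cdk1: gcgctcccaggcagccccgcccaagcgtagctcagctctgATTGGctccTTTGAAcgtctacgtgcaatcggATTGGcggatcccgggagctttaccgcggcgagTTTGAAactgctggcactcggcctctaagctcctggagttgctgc
Bub3: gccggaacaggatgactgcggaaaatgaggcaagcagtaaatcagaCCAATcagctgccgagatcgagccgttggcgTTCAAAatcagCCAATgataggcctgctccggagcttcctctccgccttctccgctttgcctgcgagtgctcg
All 6 windows hold at least 2 CCAAT boxes and at least 1 set of CHR letters. For Spc25 and Bub1 the choice required both elements, and Ccnb2, Cdc20 and Cdk1 were picked as known genes of this class. The count of 6 is therefore not a result. Bub3, the gene with the smallest difference, was not chosen by its letters.

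Of the 38 genes, 31 had an entry in the RefSeq promoter table, which reaches from 250 bases before to 50 bases after the start, and Ccna2, Cdc25c, Foxm1, Tpx2, Aurkb, Spc24 and Kif20a had none. CCAAT was present in 24 of the 31 promoters (77.4%), against 41.1% of 27025 genes in the table. The CHR letters were also present in 24 (77.4%), against 21.7% of those genes. Both were present in 22 (71.0%), against 8.61%. Matches were sought on both strands and could overlap each other. The CHR letters lay within 50 bases of the start in 24 of 33 matches (72.7%), where this held for 24.7% of the 6066 matches over all genes. A CHR match downstream of a CCAAT box was found in 22 of 31 promoters (71.0%) and in 4.13% of all genes, with a median spacing of 33.5 bases (9 to 153) in the mitotic genes and of 58.0 bases (4 to 293) over all genes. The E2F letters TTTCGCGC or TTTGGCGC were found in 1 of the 31 promoters (3.23%), that of Cdk1, and in 0.929% of all genes.

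**Figure D2:**
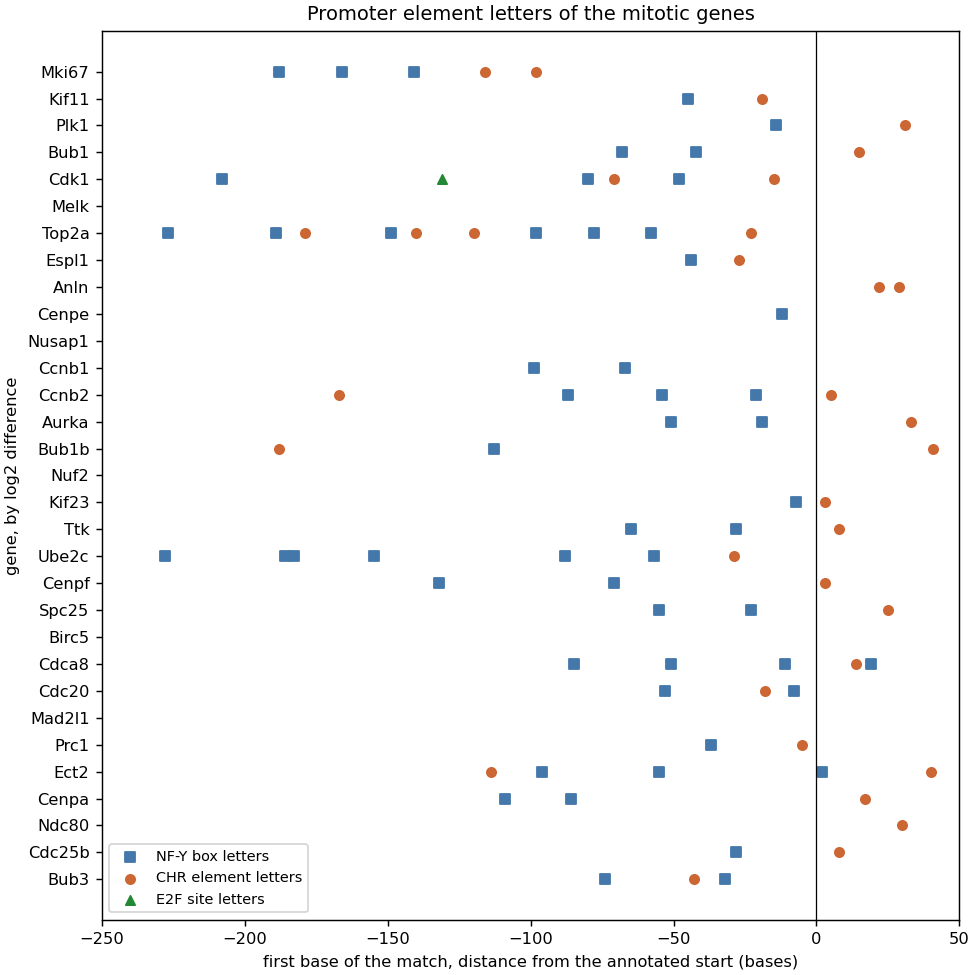
Places of the CCAAT letters of the NF-Y box (squares), the CHR letters (circles) and the E2F letters (triangle) in the 31 promoters, by distance of the match's first base from the annotated start in bases (x axis). Genes are ordered on the y axis from the largest to the smallest log2 difference. Circles gather around the start and squares mostly precede them, and Melk, Nusap1, Nuf2, Birc5 and Mad2l1 show no match of any kind.

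The letters did not order the genes by size of difference. The 24 genes with CHR letters had a median log2 difference of -1.55 (-2.00 to -0.52). The 7 without them, Ccnb1, Melk, Nusap1, Birc5, Cenpe, Nuf2 and Mad2l1, had a median of -1.69 (-1.87 to -1.35). The 7 with no table entry had a median of -1.71 (-2.03 to -1.20). These medians are a description of the chosen genes, and a match is not evidence that a factor binds there. Among the 1178 genes called lower that have a promoter entry, 21.7% held the CHR letters, against 17.5% of the 13826 tested genes with an entry. The called mitotic genes with an entry were not taken out of either set. In the DNA replication list, described further on, the CHR letters were in 8 of 38 promoters (21.1%) and the E2F letters in 11 of 38 (28.9%), against 24 of 31 and 1 of 31 in the mitotic genes. These shares of lists of unequal size are a description.

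Among the genes of mitotic entry, 5 of 6 were lower. Ccna2 encodes cyclin A2, which activates Cdk2 and then Cdk1 through S phase and G2, and it had the lowest adjusted p and the largest called difference of the group. Its level was 2.89, 2.89, 2.31 and 2.65 on eGFP arrays 1 to 4 and 0.85, 0.76, 1.40 and 0.62 on Hoxa9 arrays 1 to 4. The lowest eGFP array was thus 0.92 above the highest Hoxa9 array, and the level was 3.44-fold lower (log2 difference -1.78, SE 0.22, adjusted p = 0.00112). Ccnb2 and Ccnb1, the B-type cyclins that partner Cdk1, were 3.18-fold and 3.22-fold lower (adjusted p = 0.00132 and 0.00215). Cdc25b, a phosphatase that activates Cdk1 at the centrosome, had the smallest difference of the group. It read 3.19, 3.02, 2.40 and 2.46 in eGFP and 1.81, 1.44, 1.86 and 1.42 in Hoxa9. The groups were apart by 0.55, and the level was 2.20-fold lower (log2 difference -1.14, SE 0.23, adjusted p = 0.0111). Cdc25c, a second phosphatase of this family, was 2.29-fold lower (adjusted p = 0.0152), and this call was lost without eGFP replicate 2 (log2 difference -1.10, adjusted p = 0.0504) and with the slide as a block (log2 difference -1.12, adjusted p = 0.0577). With normexp background correction its difference was -0.63 (adjusted p = 0.012).

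Cdk1, the kinase at the centre of mitotic entry, had the largest mean difference of the entry genes and was not called. Its probe (mm9, chromosome 10, 68801072 to 68801131, minus strand) read 2.51, 2.35, 2.32 and 2.20 in eGFP and 0.99, 0.96, 1.47 and -1.63 in Hoxa9. All 4 Hoxa9 arrays were below all 4 eGFP arrays, and Hoxa9 replicate 4 lay far under the other 3. The mean difference was -1.89 with an SE of 0.61 (adjusted p = 0.0765). Without Hoxa9 replicate 4 the difference was smaller, at -1.20, and was called (adjusted p = 0.00618).

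All 3 mitotic kinases, Plk1, Aurka and Melk, were lower, as was the transcription factor Foxm1. Plk1, the Polo-like kinase that acts at centrosomes, kinetochores and the midzone, read 4.52, 4.37, 4.03 and 4.12 in eGFP and 2.19, 2.45, 2.93 and 1.66 in Hoxa9. It was the most changed of the group, 3.86-fold lower with the groups apart by 1.10 (log2 difference -1.95, SE 0.27, adjusted p = 0.00199). Melk, a kinase known from proliferating progenitors, had the lowest adjusted p of the group and was 3.65-fold lower (adjusted p = 0.00168). Aurka, the Aurora kinase of the spindle poles, fell by 1.63 on the log2 scale (adjusted p = 0.00401). Foxm1, a transcription factor that activates late cell cycle genes, changed least. It read 0.66, 0.61, 0.17 and 0.20 in eGFP and -1.07, -0.67, -0.30 and -1.14 in Hoxa9, a 2.31-fold lower level with the groups apart by 0.47 (log2 difference -1.21, SE 0.23, adjusted p = 0.00902).

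Mki67 and Top2a act on the chromosomes themselves. Mki67 encodes Ki-67, the proliferation antigen that coats mitotic chromosomes, and its probe lies at mm9 chromosome 7, 142884764 to 142884823, on the minus strand. It read 4.26, 4.40, 4.37 and 4.68 in eGFP and 2.34, 2.20, 3.03 and 2.16 in Hoxa9. Hoxa9 replicate 3 was the highest of its group and still 1.23 below the lowest eGFP array, and the level was 3.99-fold lower (log2 difference -2.00, SE 0.22, adjusted p = 0.000677). Top2a, the topoisomerase that untangles sister DNA before they part, read 1.56, 1.44, 1.56 and 1.38 in eGFP and -0.58, -0.62, 0.36 and -0.73 in Hoxa9. It was 3.67-fold lower (log2 difference -1.87, SE 0.25, adjusted p = 0.00155), with 3 Hoxa9 arrays close together and replicate 3 above them.

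Kif11, Tpx2 and Nusap1 make and organise the spindle, and all 3 were lower. Kif11 is the kinesin that pushes spindle poles apart. Its level was -0.14, 0.08, 0.39 and 0.10 in eGFP and -1.98, -2.23, -1.28 and -2.06 in Hoxa9, so that every Hoxa9 array was at least 1.14 below the eGFP arrays and the level was 3.98-fold lower (log2 difference -1.99, SE 0.23, adjusted p = 0.00086). Nusap1, a protein that bundles microtubules near chromosomes, had the lowest adjusted p of all 38 genes (probe at mm9 chromosome 2, 119475072 to 119475131, plus strand). It read 0.24, 0.28, 0.47 and 0.02 in eGFP and -1.62, -1.46, -1.34 and -1.66 in Hoxa9. Both groups were tight, with SDs of 0.184 and 0.149, and the level was 3.42-fold lower (log2 difference -1.77, SE 0.15, adjusted p = 0.000214). Tpx2, which activates Aurora A and nucleates microtubules around chromatin, had the smallest difference of the trio. It read 2.37, 2.19, 1.55 and 1.08 in eGFP and 0.32, -0.02, 0.48 and -0.60 in Hoxa9, a 3.37-fold lower level with the groups apart by 0.60 (log2 difference -1.75, SE 0.34, adjusted p = 0.0104).

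Of the chromosomal passenger complex, the kinase Aurkb, its partner survivin (Birc5) and borealin (Cdca8) were all lower. Aurkb was read near background. Its values were -3.43, -4.13, -4.03 and -3.99 in eGFP and -5.33, -6.04, -4.90 and -7.42 in Hoxa9, and it was well above background on 4 eGFP arrays and on only 2 Hoxa9 arrays. It thus passed the filter through the group where it is high, and its rank among the 38 genes is not read. In the fit the level was 4.08-fold lower (log2 difference -2.03, SE 0.50, adjusted p = 0.0285). The call was lost when any eGFP array or Hoxa9 replicate 2 was left out (adjusted p = 0.0574 to 0.0772), and with normexp background correction the difference was -0.42 (adjusted p = 0.0516). Cdca8, which targets the complex to centromeres, changed least. It read 3.86, 3.73, 3.55 and 3.61 in eGFP and 2.17, 2.38, 2.76 and 1.77 in Hoxa9, a 2.67-fold lower level (log2 difference -1.42, SE 0.22, adjusted p = 0.00332). Birc5 was 2.77-fold lower (adjusted p = 0.00488).

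All 7 centromere and kinetochore genes were called lower, 1 of them, Cenpf, from values near background. Cenpe, the kinetochore kinesin that carries chromosomes to the spindle equator, changed most. It read 3.37, 3.29, 3.34 and 3.06 in eGFP and 1.40, 1.14, 1.89 and 1.33 in Hoxa9, a 3.54-fold lower level with the groups 1.17 apart (log2 difference -1.83, SE 0.19, adjusted p = 0.0005). Spc25, Spc24, Nuf2 and Ndc80 form the Ndc80 complex, the rod that holds microtubules. Spc25 was steady within groups, at 4.03, 4.09, 4.09 and 4.19 in eGFP and 2.50, 2.65, 2.93 and 2.42 in Hoxa9. Its level was 2.78-fold lower, with an eGFP SD of only 0.0687 (log2 difference -1.47, SE 0.15, adjusted p = 0.000523). Spc24 and Nuf2 were 3.28-fold and 2.95-fold lower (adjusted p = 0.00401 and 0.00362). Ndc80 itself had the smallest difference of the group. It read -0.12, 0.15, 0.60 and 0.12 in eGFP and -1.12, -1.50, -0.49 and -0.82 in Hoxa9, a 2.25-fold lower level (log2 difference -1.17, SE 0.25, adjusted p = 0.0155), and was not called with the slide as a block (adjusted p = 0.0505). Thus the 4 subunits of 1 complex had differences of -1.71, -1.56, -1.47 and -1.17, with SEs of 0.27, 0.24, 0.15 and 0.25, and no test of a difference between them was made.

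Cenpa, the histone H3 variant that marks centromeres, was 2.27-fold lower (adjusted p = 0.0212), and its call was lost without eGFP replicate 1, 2 or 3 (adjusted p = 0.0568 to 0.0664), with the slide as a block (adjusted p = 0.0593) and with a median shift in place of the 75th percentile (adjusted p = 0.0535). Cenpf, a large outer kinetochore and nuclear matrix protein, was well above background on 4 eGFP arrays and on 1 Hoxa9 array, so that it too passed the filter through the group where it is high. It was 2.79-fold lower in the fit (adjusted p = 0.00773), and with normexp background correction its difference was -0.30 and not called (adjusted p = 0.142).

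Of the 5 spindle checkpoint genes 4 were lower. Bub1, the kinase that recruits the other checkpoint proteins to kinetochores, read 0.86, 0.95, 0.76 and 0.72 in eGFP and -1.29, -1.38, -0.51 and -1.31 in Hoxa9. It was 3.85-fold lower, with the groups apart by 1.23 (log2 difference -1.94, SE 0.21, adjusted p = 0.000658). Ttk, the Mps1 kinase that starts checkpoint signalling, was 2.93-fold lower (adjusted p = 0.00103), and with normexp background correction its log2 difference was -0.61 in place of -1.55 (adjusted p = 0.00913). Bub1b and Mad2l1, which encode BubR1 and Mad2, the proteins that bind Cdc20 and hold back the APC/C, were 3.00-fold and 2.56-fold lower (adjusted p = 0.0092 and 0.00167).

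Bub3, the propeller protein that carries Bub1 and BubR1 to kinetochores, was not called. Its probe (mm9, chromosome 7, plus strand) has ends at 138712221 and 138714437, so that its 60 bases span 2217 bases of the genome. It read 4.13, 3.94, 3.46 and 3.34 in eGFP and 3.36, 3.58, 3.13 and 2.71 in Hoxa9. The groups overlapped, since Hoxa9 replicate 2 was above eGFP replicates 3 and 4. The mean difference of -0.52 (SE 0.25) did not pass the test (adjusted p = 0.225), and stayed between -0.66 and -0.36 under the alternatives tried (adjusted p = 0.0686 to 0.413).

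All 3 genes of anaphase onset were lower. Espl1 encodes separase, the protease that cuts cohesin, and changed most, at 0.00, -0.07, -0.39 and -0.72 in eGFP and -2.08, -2.33, -1.65 and -2.55 in Hoxa9. It was 3.62-fold lower with the groups 0.92 apart (log2 difference -1.86, SE 0.24, adjusted p = 0.00162). Ube2c, the ubiquitin-conjugating enzyme that starts chains for the APC/C, was 2.88-fold lower (adjusted p = 0.00427). Cdc20, the coactivator of the APC/C and the target of the checkpoint, changed least. It read 4.22, 4.14, 4.06 and 3.64 in eGFP and 2.56, 2.33, 3.03 and 2.56 in Hoxa9, a 2.63-fold lower level (log2 difference -1.40, SE 0.20, adjusted p = 0.0024).

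The 5 cytokinesis genes were all lower. Anln, the anillin scaffold of the contractile ring, changed most, from 3.26, 3.32, 3.08 and 2.66 in eGFP to 0.99, 1.35, 1.64 and 1.05 in Hoxa9. The groups were apart by 1.02 and the level was 3.54-fold lower (log2 difference -1.83, SE 0.21, adjusted p = 0.000929). Kif20a, Kif23 and Prc1, 2 kinesins and the microtubule crosslinker of the central spindle, were 3.03-fold, 2.94-fold and 2.55-fold lower (adjusted p = 0.00231, 0.00297 and 0.00199). Ect2, the exchange factor that activates RhoA at the cleavage site, changed least. It read 2.08, 2.04, 2.26 and 1.73 in eGFP and 0.81, 0.68, 1.18 and 0.38 in Hoxa9, a 2.40-fold lower level (log2 difference -1.26, SE 0.20, adjusted p = 0.00405).

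The role groups were not tested against each other. Group medians ran from -1.47 in the passenger complex to -1.93 for Mki67 and Top2a, and 34 of the 38 genes had an SE under 0.3.

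Several genes were read by more than 1 probe, and of 54 probes kept, 45 were called lower, 0 higher and 9 were not called, where 6.65% of all 40771 probes were called lower. All 54 had a difference below 0, and at the level of genes 55.7% of all genes did. The probes of Aurkb and Cenpf passed the filter through the group where they are high. So, in the main, did the second kept Nuf2 probe, which was well above background on 3 eGFP arrays and 1 Hoxa9 array. Another Nuf2 probe was left out because it was well above background on 1 array. Among 12 genes with several kept probes, every probe was lower for Birc5, Ccnb1, Cdca8, Ect2, Mki67 and Ube2c. For Cdk1, Foxm1, Kif23, Mad2l1, Nuf2 and Tpx2, some were not called. The 2 Tpx2 probes stood farthest apart. The second (mm9, chromosome 2, 152720285 to 152720344) read 0.14, -0.09, 0.32 and 0.51 in eGFP and 0.81, -2.37, 0.66 and 0.03 in Hoxa9, where only Hoxa9 replicate 2 was low, and its difference was -0.44 (SE 0.65, adjusted p = 0.694). With the mean of both probes Tpx2 was not called (log2 difference -1.09, adjusted p = 0.0967).

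Cdk1 had 3 probes with differences of -1.89 (SE 0.61), -1.21 (SE 0.26) and -0.93 (SE 0.76), of which the middle one was called (adjusted p = 0.0185 over all probes). It read -1.02, -1.86, -1.91 and -1.83 in eGFP and -2.93, -3.21, -2.36 and -2.99 in Hoxa9, and Hoxa9 replicate 4 was within the range of its group. This probe and the one of -1.89 share 41 of their 60 bases, and their own 19 bases are shown because the 2 probes differ at Hoxa9 replicate 4.
Upstream probe: ttcttaatttcctacgtat
Downstream probe: tataattctgtatatgtgc
The upstream probe is the one that represents Cdk1 above. Its low value in Hoxa9 replicate 4 was not seen on the probe that covers most of the same stretch. The third Cdk1 probe read -2.00, -1.59, -1.10 and -0.61 in eGFP and -1.80, -4.70, -1.15 and -1.39 in Hoxa9, with Hoxa9 replicate 2 far under the rest (adjusted p = 0.473). For Mad2l1, 2 further probes gave -0.84 and -0.68 and were not called (adjusted p = 0.219 and 0.225). The second probes of Foxm1, Nuf2 (read near background) and Kif23 gave -0.67, -0.99 and -1.64 (adjusted p = 0.133, 0.218 and 0.118).

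**Figure D3:**
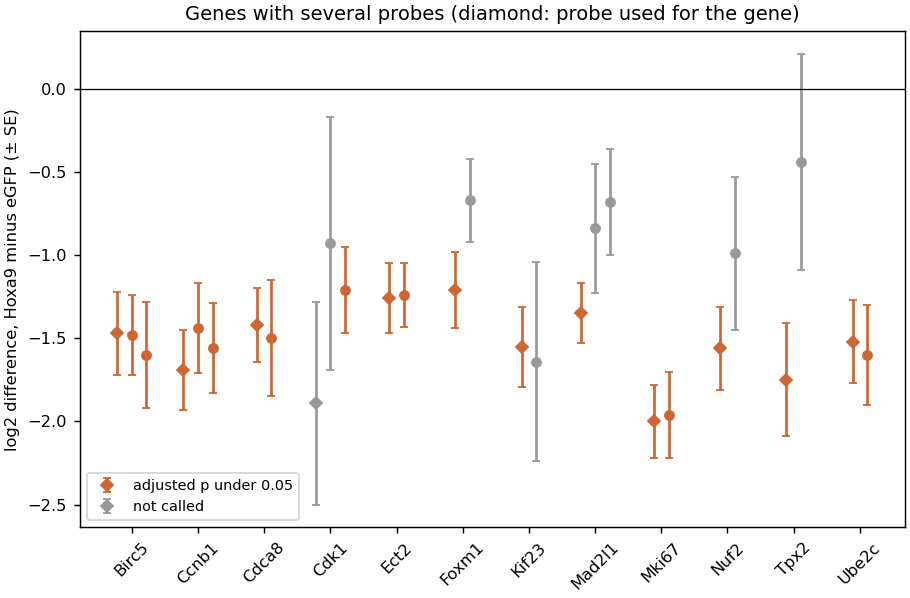
Log2 difference of Hoxa9 minus eGFP with bars of 1 SE (y axis) for each kept probe of the 12 genes with several (x axis). Diamonds are the probes that represent the gene, orange points are probes called lower at an adjusted p under 0.05, and grey points those not called. Every probe lies below 0, and the widest spreads are those of Tpx2 (1.31) and Cdk1 (0.96).

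The 38 genes largely shared an order of arrays within each group. Averaged over the 38 genes, the level was 1.80, 1.76, 1.56 and 1.39 on eGFP arrays 1 to 4 and 0.00, -0.09, 0.54 and -0.27 on Hoxa9 arrays 1 to 4. The group means were 1.63 (SD 0.192, n = 4) and 0.05 (SD 0.350, n = 4), and no Hoxa9 array reached the lowest eGFP array. Hoxa9 replicate 3 was the highest of its group for 35 of 38 genes, and Hoxa9 replicate 4 the lowest for 22. In eGFP, replicate 1 was the highest for 23 genes and replicate 4 the lowest for 24.

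**Figure D4:**
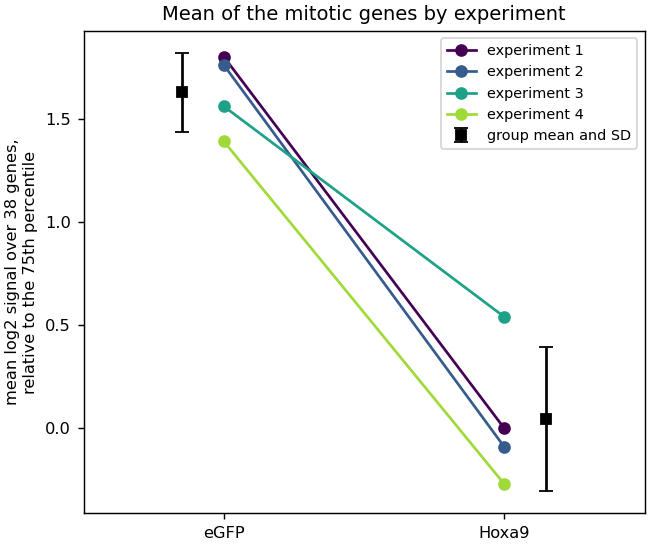
Mean log2 signal over the 38 mitotic genes on each array, relative to the array's 75th percentile (y axis), for eGFP and Hoxa9 (x axis). Lines join arrays of the same replicate number (experiment), and black squares with bars are the group means of 1.63 and 0.05 with their SD (n = 4). All eGFP arrays lie at 1.39 or above and all Hoxa9 arrays at 0.54 or below, and experiment 3 has the shallowest line.

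The same direction was found within every pair and every slide. Taken by replicate number, the mean difference over the 38 genes was -1.80, -1.84, -1.02 and -1.66 in pairs 1 to 4, and all 38 genes were lower in each pair, where 52.3% to 56.3% of all genes were. The arrays lay on 3 slides, with 1, 2 and 1 Hoxa9 arrays against 2, 1 and 1 eGFP arrays. On each slide at least 1 group thus had a single array. Within slides 1 to 3 the mean difference was -2.05, -1.60 and -0.84. On these, 38, 37 and 38 genes were lower, against 48.0%, 51.9% and 58.5% of all genes. Slide 3, with the smallest difference, holds Hoxa9 replicate 3 and eGFP replicate 4. Without Hoxa9 replicate 3 the median difference over the 38 genes was -1.82, and 36 were called lower.

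Markers of other cell states also varied between arrays. The counts called below stand beside 7.42% of all genes called lower and 7.83% called higher. The mean level over the muscle stem cell markers was 3.58 to 3.80 in eGFP and 2.69 to 3.06 in Hoxa9, with 5 of 9 tested genes lower and 1 higher, and Pax7 fell by 1.30 (adjusted p = 0.00401). Differentiated muscle genes averaged 1.90, 1.74, 3.05 and 3.36 in eGFP and 2.94, 2.96, 3.94 and 4.30 in Hoxa9, with 2 of 10 higher and 0 lower. In both groups replicates 3 and 4 were above replicates 1 and 2 for these genes. Fibroblast markers averaged -0.65 to 0.63 in eGFP and -0.37 to 1.07 in Hoxa9, with 2 of 9 higher (Ly6a and Smoc2) and 0 lower. Smooth muscle markers averaged -0.06 to 0.83 in eGFP and -0.06 to 0.88 in Hoxa9, with 2 of 10 lower and 1 higher. Endothelial markers averaged -1.75 to -1.45 and -1.94 to -1.45, with 1 of 7 lower and 2 higher, and blood markers -0.44 to 0.05 and -0.70 to 0.29, with 0 of 7 called. The part of these cell states in the mitotic gene result was not tested.

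Other genes of cell division were taken from 11 further lists of the same processes, 233 genes tested in all, of which 124 were lower and 0 higher. The share called lower ran from 16.7% to 82.6% between lists. Of 34 other kinetochore and centromere genes 21 were lower (61.8%, median -1.05), among them Zwilch, a subunit of the complex that brings dynein to kinetochores (-1.77, adjusted p = 0.000375). Cenpk, of the inner kinetochore, fell by 1.61 (adjusted p = 0.00057). Of 12 other checkpoint and passenger genes 7 were lower (58.3%, median -0.88), led by the shugoshins Sgo2a and Sgo1, guardians of centromeric cohesin, and Cdca2, a phosphatase subunit of anaphase chromatin. These fell by 1.96, 1.93 and 1.87 (adjusted p = 0.000773, 0.000905 and 0.00114).

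Of 29 tested spindle motors and microtubule proteins 21 were lower (72.4%, median -1.10). The spindle pole protein Aspm, the microtubule destabiliser Stmn1 and the kinesin Kif15 fell by 1.76, 1.88 and 2.14 (adjusted p = 0.000449, 0.00053 and 0.00154). Of 19 condensin and cohesin genes 12 were lower (63.2%, median -0.65). The condensin subunit Ncapg2, the cohesin acetyltransferase Esco2 and Cdca5, or sororin, fell by 1.50, 1.97 and 1.58 (adjusted p = 0.00053, 0.000622 and 0.000934). Among 17 other regulators of mitotic entry and exit 8 were lower (47.1%, median -0.70), of which lamin B1 (Lmnb1), the kinase Pbk and cyclin F (Ccnf) fell by 1.91, 2.15 and 1.70 (adjusted p = 0.000159, 0.000642 and 0.000718).

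Of 18 genes of the APC/C list 3 were lower (16.7%, median -0.16), namely Ube2s, the enzyme that lengthens the ubiquitin chains, Fbxo5, the inhibitor Emi1, and the small subunit Cdc26. Their differences were -1.26, -2.20 and -0.50 (adjusted p = 0.00101, 0.00147 and 0.0281). Pttg1, or securin, had a difference of 0.34 (adjusted p = 0.243) and was not called. Of 14 other cytokinesis genes 5 were lower (35.7%, median -0.21), with the RhoA regulators Arhgap11a and Racgap1 and the scaffold Iqgap3 at -1.56, -1.06 and -2.05 (adjusted p = 0.000317, 0.00973 and 0.00196). Of 18 centrosome and centriole genes 4 were lower (22.2%, median -0.53), and the kinases Nek2 and Plk4 and the centriole assembly factor Stil fell by 1.36, 1.42 and 1.45 (adjusted p = 0.00184, 0.00284 and 0.00337).

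Upstream of mitosis, 38 of 46 DNA replication genes were lower (82.6%, median -1.34), among them the nucleotide pyrophosphatase Dut, cyclin E1 (Ccne1) and the origin subunit Orc6. These fell by 1.79, 1.83 and 1.24 (adjusted p = 0.00011, 0.000468 and 0.000647). Of 15 genes of the DREAM and MuvB complexes, which act at CHR and E2F elements, 3 were lower (20.0%, median -0.04). They were Rbl1, the pocket protein p107, the activator Mybl2 and the E2F partner Tfdp1, which fell by 1.21, 1.49 and 0.87 (adjusted p = 0.00744, 0.0142 and 0.0186). Of 11 G1 cyclins and kinases 2 were lower (18.2%, median -0.35), Ccnd1 at -1.23 and Cdk4 at -0.71 (adjusted p = 0.029 and 0.0462). Cyclin E1, a cyclin of the step from G1 to S phase, was counted in the DNA replication list and not in this one. Ccnd2 had a difference of -0.98 and was not called (adjusted p = 0.0698).

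**Figure D5:**
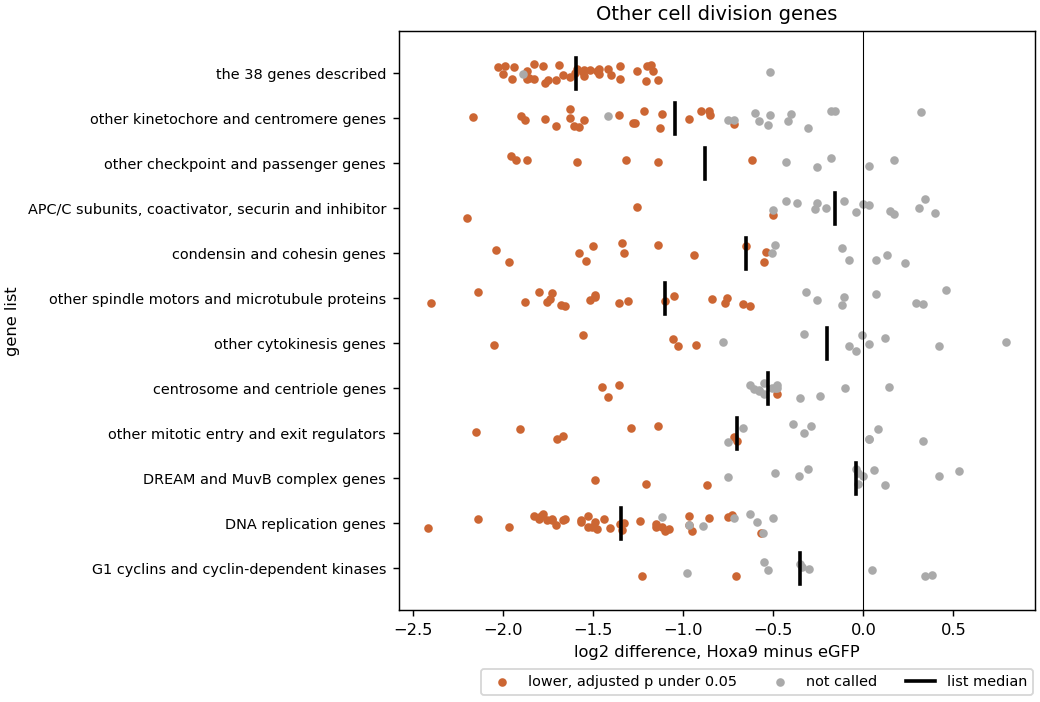
Log2 difference of Hoxa9 minus eGFP for each gene (x axis) in the 38 mitotic genes and 11 further cell division lists (y axis). Orange points are genes called lower at an adjusted p under 0.05, grey points those not called, and black bars list medians. Medians lie at -1.59 for the 38 genes, -1.34 for DNA replication and -0.16 for the APC/C.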

How the data were processed

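The intensity values were the deposited processed signals of 8 1-colour scans, which per the file headers the authors made with Agilent Feature Extraction 10.7.3.1 (background subtracted, detrended, probe positions on mm9). Exon and UTR placement of probes is not given, as an mm9 annotation was not used. A second deposited table, of log2 values, lacked decimal points in 86.1% to 87.3% of cells. Restored after the leading digit, its values matched log2 scanner signals plus 1 constant per array (within 0.05 for at least 99.998% of probes), uncentred by gene. Its column medians were -3.38, -3.24, -3.12 and -3.09 (eGFP) and -3.25, -3.27, -3.23 and -2.96 (Hoxa9), and it was used as an alternative only.

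Control and outlier-marked spots were left out (180 of 55681 probes lost) and repeated spots averaged. Each array's 75th percentile (514 to 779 signal units) was subtracted on the log2 scale. A probe was kept if it was well above background on 4 or more of the 8 arrays, and a gene was read by its kept probe of highest mean. RefSeq (GRCm38.p6) matched 27536 probes and updated 1704 names. The test was limma 3.58.1 in R 4.3.3, adjusted by Benjamini-Hochberg over 27109 genes, or over 40771 probes for single probes, after it was tested on simulated data. Slides were told apart by the barcode in the name of each scan. Deviations from the group means correlated weakly in same-numbered samples (0.143, 0.228, 0.129 and 0.186). Unlike-numbered samples ran from -0.265 to 0.188. Among these, eGFP 3 with Hoxa9 4 gave 0.137 and eGFP 4 with Hoxa9 3 gave 0.188, so these values do not single out the numbered pairs of replicates 3 and 4. The replicate as a block was an alternative fit.

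The members and all gene lists were chosen with earlier results of these data known. Named genes were Hoxa9, all 38 members and the 3 of lowest adjusted p in each further list (1 of these is not reported here), with Pttg1 and the marker genes other than Pax7 named after their values were seen. Values per array are given for the 3 members of lowest adjusted p, the largest and smallest difference in each role group, and members not called.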

Additional observations from a re-analysis of the deposited data

Results flagged for a closer look

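In 8 of 80 sets of values examined, 1 of the 4 arrays of a group lay far from the other 3. The sets were the 38 genes, Hoxa9 and the mean over the 38 genes, in 2 groups. For independent sets chance gives about 1 in 20. These sets come from the same 8 arrays, and the genes largely shared an order of arrays, so the count is not read against that rate. In Hoxa9 replicate 3, Top2a read 0.36 against -0.73 to -0.58 on the others, Birc5 4.42 against 3.39 to 3.48, Bub1 -0.51 against -1.38 to -1.29, and Ube2c 1.82 against 0.79 to 0.96. In Hoxa9 replicate 4, Cdk1 read -1.63 against 0.96 to 1.47 and Cenpa 0.52 against 1.32 to 1.44. In eGFP replicate 4, Cdc25c read -2.89 against -2.12 to -1.97 and Ttk -3.58 against -3.23 to -3.17. The 4 genes high in Hoxa9 replicate 3 were still below every eGFP array there.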

How the results depend on the processing

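Over 21 alternatives, single genes kept direction and call in 769 of 796 cases, gained the call in 4 (all Cdk1) and lost it in 23, and none reversed. Cdk1 was called when normexp was used (-1.73), when its probes were averaged (-1.35), under a robust prior with an intensity trend (-1.89) and without Hoxa9 replicate 4. The calls lost were those of Aurkb, Cenpa, Cdc25c, Ndc80, Tpx2, Cenpf and Cdc25b. Leaving out 1 array gave 33 to 37 of the 38 genes lower, with medians of -1.82 to -1.51, 41 to 45 probes lower, 97 to 119 related genes lower and a Hoxa9 difference of 5.81 to 6.12. The slide as a block gave 33 genes lower, without Cdc25c, Cenpa and Ndc80, with 37 probes and 97 related genes. At a limma adjusted p under 0.01 the counts were lowest for genes, probes and related genes, at 30, 34 and 89. Cdc25b lost its call only at this stricter threshold. The replicate block gave 36 with a median of -1.59 and changed no member's call. Mean differences moved within pair 3 (-1.02), slide 1 (-2.05) and slide 3 (-0.84). Related genes called higher were 1 with quantile normalization, 3 with normexp and 1 with array weights, against 0, and the cause was not tested. The number of arrays limits the precision, and low signal limits Aurkb, Cenpf, Ttk and Cdc25c.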
